A study of Mus musculus with 6 samples.

Results

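The enzymes examined here make NADPH or form the pentose phosphate pathway, and were compared between CT26 cells with and without knockdown of the 15 kDa selenoprotein. The 9 listed genes were G6pdx, Pgls and Pgd of the oxidative branch, Rpia, Rpe, Tkt and Taldo1 of the non-oxidative branch, and Me1 and Idh1, which make NADPH in the cytosol outside the pathway. Members were chosen by name: every probe set (a group of short probes read as 1 value) that the array annotation assigned to 1 of these symbols was taken. This gave 17 probe sets of 8 genes, out of 45037 probe sets of 18193 genes in all. G6pdx, which encodes glucose-6-phosphate dehydrogenase, the entry enzyme of the pathway, was not analysed here.

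CT26 is a mouse colon carcinoma line of BALB/c origin that grows as a graft in that strain. The 3 control samples came from CT26 cells that received the pU6-m3 vector without an insert, and the 3 shSep15 samples from CT26 cells that received pU6-m3 expressing a short hairpin RNA against Sep15, so both groups carried the vector. The hairpin was built on a stretch of 19 bases of the mouse Sep15 cDNA, acagaagagttccatttaa, shown because all knockdown samples rest on this 1 construct. Each sample was read on 1 Affymetrix Mouse 430_2 array, and the submitters summarised each probe set as a log2 value by RMA. Whether single clones or pooled transfectants were used is not stated. The mRNA samples within a group were distinct, but separate cultures are not mentioned, so the p-values measure the spread between these samples, which may be technical.

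Array medians lay between 5.83 and 5.87, and Selenof, the current symbol of Sep15, fell from 12.40 to 9.48 (log2 difference −2.92, SE 0.08, limma adjusted p = 2.43e-07), with 13.2% of the control signal left; with the mean of its probe sets, 1 of them near 4.70 in both groups, the difference was −1.47. A level of 6.02, set from probe sets of olfactory and vomeronasal receptors, is called the background level. Of 10 markers of colon epithelium, Krt19, Cdh1, Vil1, Cdx2 and Muc2 lay under it in both groups, while Epcam read 7.59 in control and 7.55 in shSep15 cells; the mesenchymal filament gene Vim read 13.43 and 13.66. Over the 10 epithelial markers 3 fell and 0 rose. The falls were those of Krt20 (8.28 to 6.15), Krt18 (6.65 to 4.48) and Lgals4 (6.85 to 5.84), with Krt18 and Lgals4 ending under the background level. The mean log2 level of the 10 per array was 6.01 to 6.15 in control and 5.41 to 5.62 in shSep15 cells. Over 5 mesenchymal markers 4 rose, Vim among them, and 1, Dcn, fell (7.79 to 6.07), with means of 9.70 to 9.88 and 9.99 to 10.26. The means of 4 leukocyte markers were 5.39 to 5.50 and 5.41 to 5.69, with Ptprc at 4.14 and 4.23. Those of 3 endothelial markers were 5.56 to 5.59 and 5.56 to 5.61, with Pecam1 at 5.09 and 5.11. The leukocyte marker Cd3e (6.26 and 6.39) and the endothelial marker Kdr (6.24 and 6.22) lay above the background level in both groups. The part of the epithelial and mesenchymal shifts in the results below was not tested. All values below are from bulk RNA, in which fewer expressing cells and less RNA per cell cannot be told apart.

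In the oxidative branch, glucose-6-phosphate is oxidised to ribulose-5-phosphate, and the dehydrogenases at its start and end each reduce NADP to NADPH. The non-oxidative branch then converts ribulose-5-phosphate to ribose-5-phosphate, the sugar of nucleotides, or passes carbon back to glycolysis through reversible transfers. Malic enzyme and the NADP-dependent isocitrate dehydrogenase of the cytosol are the other main cytosolic sources listed here. NADPH drives the synthesis of fatty acids and sterols and keeps glutathione and thioredoxin reduced, and it is known to be in demand in dividing tumour cells.

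Both measured enzymes of the oxidative branch, Pgd and Pgls, rose in shSep15 cells. In the non-oxidative branch Tkt rose, Rpia and Rpe fell, and Taldo1 did not pass the test, nor did Me1 and Idh1 outside the pathway. Thus 3 of 8 genes rose and 2 fell (limma, adjusted p under 0.05 over all probe sets, each gene read on its brightest probe set). Over all genes, 12.2% were called higher and 12.8% lower, 25.0% together; among the 10870 genes above the background level, as all 8 members were, 19.3% were called higher and 19.8% lower, 39.1% together. The median log2 difference of the 8 members was 0.15 against 0.01 for all genes, and their median absolute difference was 0.50 against 0.27 for genes above the background level. The 8 members are too few for anything particular to them to be read from the count.

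**Figure D1:**
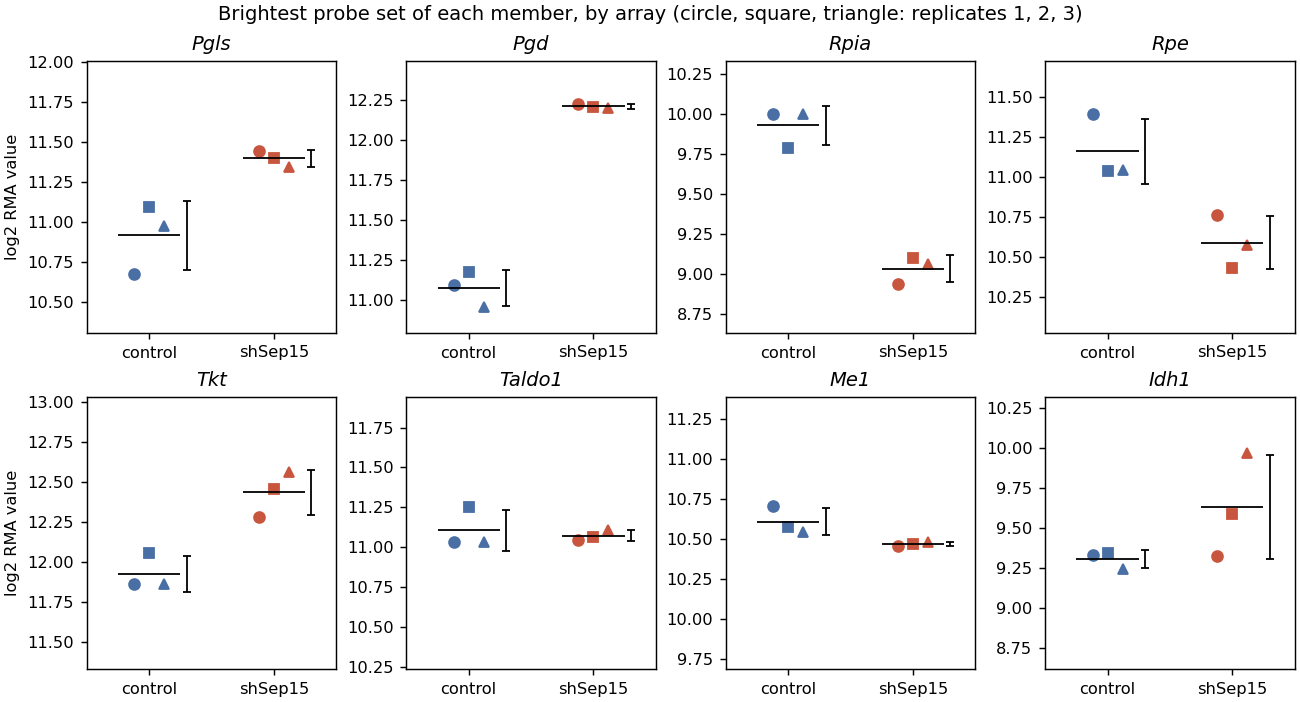
Log2 RMA value of the brightest probe set of each of the 8 measured members on the 3 control (blue) and 3 shSep15 (red) arrays; symbols mark the replicate, the line is the mean and the bar 1 SD, and all panels span the same range. Pgd, Pgls and Tkt lie higher and Rpia and Rpe lower on every shSep15 array than on any control array, while the groups overlap for Taldo1 and Idh1.

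Pgd encodes 6-phosphogluconate dehydrogenase, the enzyme of the second NADPH-producing step. Its brightest probe set (1436771_x_at) read 11.10, 11.18 and 10.95 on the control arrays and 12.23, 12.21 and 12.20 on the shSep15 arrays. The shSep15 arrays lay close together and well above all control arrays. The rise was 1.14 on the log2 scale (SE 0.07, 95% interval 0.98 to 1.29, limma adjusted p = 9.54e-06), a 2.20-fold difference, and it placed Pgd 301st from the top among the 18193 genes by difference. All 4 probe sets of Pgd rose. The 3 others, 1437380_x_at, 1423706_a_at and 1438627_x_at, gave differences of 1.08, 1.02 and 0.97 (limma adjusted p at most 2.37e-05), and none of the 4 overlapped between groups. Probe sets with the suffix x can hold probes that match other transcripts, but 1423706_a_at, which does not carry it, gave much the same value.

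Pgls encodes 6-phosphogluconolactonase, which hydrolyses the lactone made by the entry enzyme and supplies the substrate of Pgd. Its single probe set (1417722_at) read 10.67, 11.09 and 10.97 on the control arrays and 11.44, 11.40 and 11.34 on the shSep15 arrays. The groups did not overlap, but the controls spread more widely (SD 0.22 against 0.05, n = 3 each), with control 1 the lowest. The rise was 0.48 (SE 0.10, 95% interval 0.25 to 0.72, limma adjusted p = 0.00988), or 1.40-fold. Without control 1 it was smaller, at 0.36, and the limma adjusted p with any 1 array left out stayed at or below 0.0465.

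At the junction of the branches, both enzymes that act on ribulose-5-phosphate fell. Rpia encodes the isomerase that turns it into ribose-5-phosphate. Its single probe set (1418337_at) read 9.79 on control 2, 10.002 on control 3 and marginally less than that on control 1, against 8.94, 9.10 and 9.06 on the shSep15 arrays. Every shSep15 array was lower than every control array by more than the spread within either group. The difference was −0.90 (SE 0.10, 95% interval −1.13 to −0.67, limma adjusted p = 0.000285), a level 1.86-fold lower.

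Rpe encodes the epimerase that turns ribulose-5-phosphate into xylulose-5-phosphate, a substrate of transketolase. Its brightest probe set (1416706_at) read 11.40, 11.04 and 11.05 on the control arrays and 10.76, 10.43 and 10.58 on the shSep15 arrays. Control 1 was the highest of the controls and shSep15 1 the highest of its group, yet the groups did not overlap. The difference was −0.57 (SE 0.12, 95% interval −0.84 to −0.30, limma adjusted p = 0.00834), or 1.49-fold lower. Another probe set (1416705_at) gave −0.43 at the edge of the threshold (limma adjusted p = 0.0474). That call ended without control 1 (−0.29, limma adjusted p = 0.113), control 2 (0.0912), shSep15 1 (0.0783), shSep15 2 (0.131) or shSep15 3 (0.167). The remaining Rpe probe set, 1448444_at, read 4.31 and 4.29, under the background level, and gives no reading of the gene. With the mean of all 3 probe sets, this one included, the difference of Rpe was −0.34 (limma adjusted p = 0.0323).

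Tkt encodes transketolase, which carries ketol units between sugar phosphates and links the pathway to glycolysis. Its brightest probe set (1439443_x_at) read 11.86, 12.05 and 11.87 on the control arrays and 12.29, 12.46 and 12.57 on the shSep15 arrays. The groups did not overlap. The rise was 0.51 (SE 0.08, 95% interval 0.32 to 0.70, limma adjusted p = 0.00207), or 1.42-fold. A second probe set above background, 1451015_at, rose by 0.46 (limma adjusted p = 0.00473), and 1436605_at, under the background level in both groups, showed a difference of −0.03. With the mean of all 3 probe sets, the one under background included, the difference of Tkt was 0.31, at the edge of the threshold (limma adjusted p = 0.0474).

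Taldo1 encodes transaldolase, the other transfer enzyme of the non-oxidative branch. Its single probe set (1425129_a_at) read 11.03, 11.25 and 11.03 on the control arrays and 11.04, 11.07 and 11.11 on the shSep15 arrays. The groups overlapped fully. The difference was −0.03 with a 95% interval of −0.21 to 0.14 (limma adjusted p = 0.846), an interval that leaves out the rise of Tkt and the fall of Rpe; these differences between genes were not tested as such.

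Outside the pathway, neither cytosolic NADPH source passed the test. Me1 encodes malic enzyme, which makes NADPH while it turns malate into pyruvate. Its brightest probe set (1430307_a_at) read 10.70, 10.58 and 10.55 on the control arrays and 10.45, 10.47 and 10.48 on the shSep15 arrays. All shSep15 arrays were lower, but the difference was only −0.14 (95% interval −0.31 to 0.03, limma adjusted p = 0.269). The other probe set, 1416632_at, overlapped between groups and differed by −0.04 (95% interval −0.24 to 0.17). Across the 8 members, 6 showed no overlap between groups on the brightest probe set, against 38.1% of all genes and 55.1% of genes above the background level.

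Idh1 encodes the NADP-dependent isocitrate dehydrogenase of cytosol and peroxisomes. Its brightest probe set (1422433_s_at) read 9.33, 9.35 and 9.24 on the control arrays and 9.33, 9.59 and 9.97 on the shSep15 arrays. The shSep15 arrays spread from the control level to well above it (SD 0.32 against 0.06, n = 3 each). The difference of 0.32 was not past the threshold (95% interval −0.02 to 0.67, limma adjusted p = 0.203). It was 0.15 without shSep15 3 and 0.47 without shSep15 1 (limma adjusted p = 0.531 and 0.0550). The other probe set, 1419821_s_at, differed by 0.24 (limma adjusted p = 0.417), and by 0.07 without control 3, the lowest control on it.

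**Figure D2:**
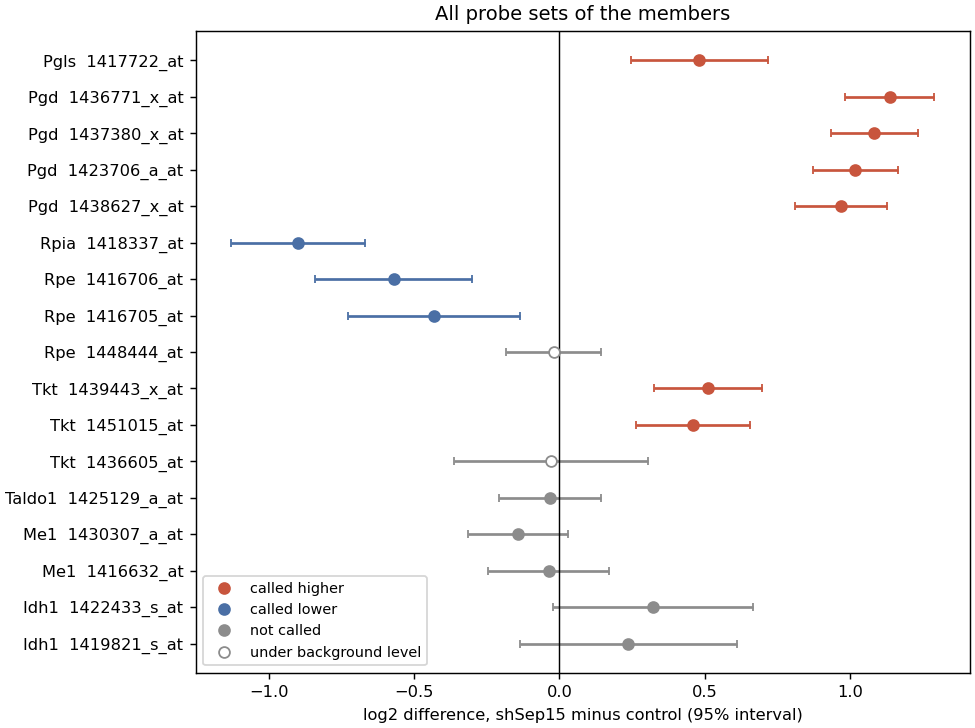
Log2 difference, shSep15 minus control, of all 17 member probe sets with its 95% interval from limma; red marks probe sets called higher, blue called lower, grey not called, and open points lie under the background level. The 4 probe sets of Pgd lie between 0.97 and 1.14, the 2 of Tkt above background near 0.5, and Rpia at −0.90.

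At the level of probe sets, 7 of 17 were called higher and 3 lower, against 9.71% and 9.66% of all probe sets, 19.4% together. The groups did not overlap on 11 of the 17, against 31.7% of all probe sets. Of all probe sets only 47.4% lay above the background level, while 2 of these 17 lay under it, so both comparisons are with a dimmer set. The probe sets of a gene read the same transcript and are not separate evidence. Of the 7 not called, 2 were those under the background level. The 5 genes called kept their direction and their side of the threshold in each of the 11 alternative analyses.

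The start regions of the members are shown for the gene with the greatest rise, the gene with the greatest fall and Me1, a textbook target of the antioxidant factor NRF2. The sequences are from the RefSeq promoter table (build GRCm38.p6), in which all 8 members were found, and run from 250 bases before the annotated start to 30 bases after it on the gene's own strand. For Pgd this is chr4:149166676-149166955, for Rpia chr6:70792146-70792425 and for Me1 chr9:86695885-86696164, each on the minus strand. Capitals mark, on either strand, a GC box with the letters GGGCGG, the core of the antioxidant response element with the letters TGACNNNGC, and a CCAAT box.
Pgd: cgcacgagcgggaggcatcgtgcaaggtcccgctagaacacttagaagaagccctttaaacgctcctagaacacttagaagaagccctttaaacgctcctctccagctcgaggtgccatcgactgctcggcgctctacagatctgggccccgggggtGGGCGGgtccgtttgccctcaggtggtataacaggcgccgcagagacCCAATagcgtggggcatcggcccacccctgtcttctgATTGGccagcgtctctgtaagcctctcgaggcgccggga
Rpia: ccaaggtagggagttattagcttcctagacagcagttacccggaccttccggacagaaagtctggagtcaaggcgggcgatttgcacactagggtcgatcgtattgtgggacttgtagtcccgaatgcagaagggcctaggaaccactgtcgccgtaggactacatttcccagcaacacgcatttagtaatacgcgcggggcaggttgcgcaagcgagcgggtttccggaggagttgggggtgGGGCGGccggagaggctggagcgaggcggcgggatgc
Me1: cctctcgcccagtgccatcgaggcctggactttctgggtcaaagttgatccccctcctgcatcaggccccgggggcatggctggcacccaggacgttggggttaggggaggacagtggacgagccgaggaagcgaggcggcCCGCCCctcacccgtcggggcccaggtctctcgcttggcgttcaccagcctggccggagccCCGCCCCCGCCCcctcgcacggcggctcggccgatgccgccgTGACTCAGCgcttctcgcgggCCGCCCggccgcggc

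In windows reaching 50 bases past the most upstream start, the antioxidant response element core was found in 1 of 8 members, Me1, where it begins 6 bases before the start and overlaps an AP-1 site (TGANTCA). Of all 32851 promoter windows in the table, 12.4% held this core and 7.81% the AP-1 site. A downstream start of Pgd also had 1 such core, TGACATTGC, beginning at base 4 after it. A GC box was in 8 of 8 members against 35.7% of all windows, a CCAAT box in 4 of 8 against 37.4%, and an E-box (CACGTG) in 0 of 8 against 7.15%. The bases are unlike: the members were counted at their most upstream start, while the shares take in every window, downstream starts included. The shares also take in genes whatever their level here, whereas all 8 members lay above the background level. No share among expressed genes was taken. The downstream windows of Pgd and Me1 held no GC box, and that of Idh1 held 1. These are matches of letters and say nothing of binding.

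The share of genes called differed from chromosome to chromosome, so each member was set beside its neighbours in the RefSeq gene order. Pgd lies on chromosome 4, where 33.2% of the other genes above background were called higher and 8.22% lower. Of its 20 nearest such genes, 7 were higher and 3 lower, with a median of 0.12. The genes next to it on either side, Cenps (1.26) and Kif1b (1.09), named after their values were seen, differed by about as much as Pgd itself. The part of this region in the rise of Pgd was not tested.

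Neighbours of the other called members were called in both directions, as around Pgd. Around Tkt on chromosome 14, 3 of 20 neighbours were called higher and 3 lower, with a median of 0.00. Of the chromosome's other genes above background, 17.5% were called higher and 21.5% lower. Around Pgls on chromosome 8, 4 were higher and 1 lower, with a median of 0.04, against 16.6% and 20.2% of the chromosome. Around Rpia on chromosome 6, 4 were higher and 6 lower, with a median of −0.13, against 13.7% and 23.6% of the chromosome. Of the 20, 2 had a larger absolute difference than Rpia. Rpe lies on chromosome 1, where 25.5% of genes above background were called lower and 13.7% higher; of its 20 neighbours 6 were lower and 2 higher, with a median of −0.08.

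**Figure D3:**
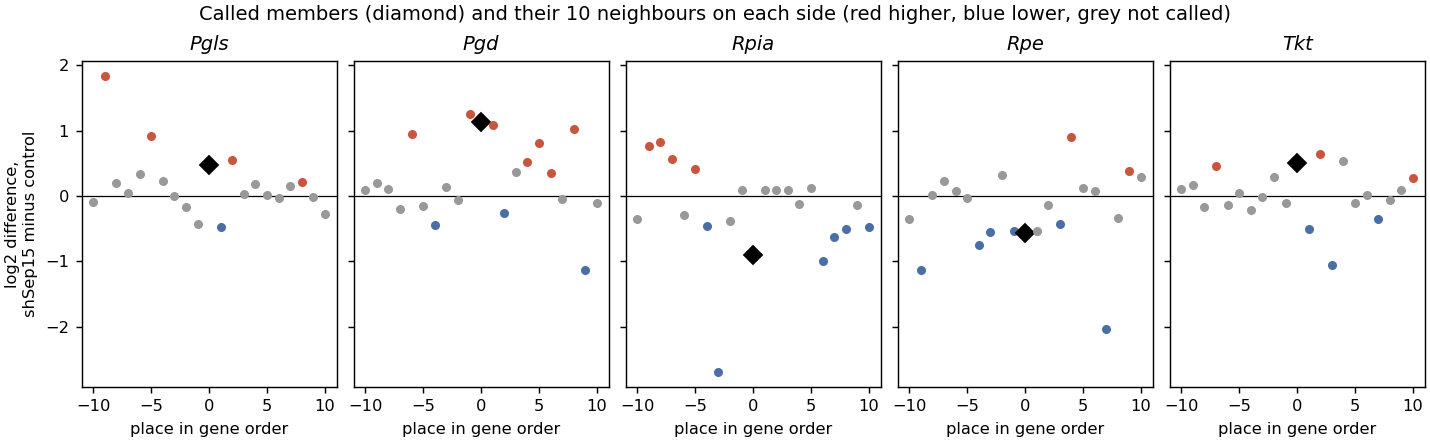
Log2 difference, shSep15 minus control, of the 5 called members (black diamonds) and their 10 nearest genes above background on each side, by place in the gene order; red was called higher, blue lower and grey not called. The 20 neighbours have medians of 0.12 for Pgd, 0.04 for Pgls, 0.00 for Tkt, −0.08 for Rpe and −0.13 for Rpia.

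A list of other NADPH sources and of enzymes related to them or to the members moved both ways. Not every enzyme of the list makes NADPH, so its rises do not count raised NADPH sources. Of 15 measured, 5 rose and 2 fell, with a median of 0.11, and 4 were near background in both groups. The share called was 46.7%, against 25.0% of all genes and 39.1% of genes above the background level. Aldh1l2, the mitochondrial formyltetrahydrofolate dehydrogenase that makes NADPH, read 11.45, 11.44 and 11.66 on the control arrays and 9.61, 9.30 and 9.59 on the shSep15 arrays, a difference of −2.02 (SE 0.11, limma adjusted p = 5.02e-06). Mthfd2, a mitochondrial folate dehydrogenase, differed by −0.91 (limma adjusted p = 5.60e-05). Nadk2, the mitochondrial NAD kinase, which makes NADP, rose by 0.85 (limma adjusted p = 0.00287). Idh2, the mitochondrial counterpart of Idh1, rose by 0.51 (limma adjusted p = 0.0151). That call ended without shSep15 2 (0.0696), without shSep15 3 (0.0583) and with the mean of its probe sets (0.17, limma adjusted p = 0.290). No other probe set of Idh2 lay above the background level, so that mean included dim readings. H6pd, the endoplasmic reticulum enzyme that combines the first steps of the pathway, was not past the threshold (0.11, limma adjusted p = 0.631; named after its value was seen). The number of this list called higher fell from 5 to 3 without control 3, shSep15 1 or shSep15 3, and to 2 without shSep15 2.

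A further list held enzymes that make phosphoribosyl pyrophosphate or build nucleotides from it, with others that handle neighbouring sugar phosphates, such as Rbks, Pgm2, Dera, Shpk and Tigar (named as members of the list, not for their values). Of 13 measured, 5 rose and 3 fell, with a median of 0.03. The share called was 61.5%, against 25.0% of all genes and 39.1% of genes above the background level. This list was chosen with earlier results known, and its share was not tested. The number lower was 1 without shSep15 3. Prps2, which makes phosphoribosyl pyrophosphate from ribose-5-phosphate, read 9.27, 9.36 and 9.35 on the control arrays and 10.23, 10.16 and 10.31 on the shSep15 arrays, a rise of 0.91 (SE 0.09, limma adjusted p = 0.000113). Ppat, the committed enzyme of purine synthesis, rose by 0.83 (limma adjusted p = 0.00548), and Gmps, which makes GMP, by 0.75 (limma adjusted p = 4.89e-05). Dera, an aldolase that breaks down deoxyribose phosphate, differed by −0.61 (limma adjusted p = 0.00430). With the mean of a gene's probe sets, Ppat differed by 0.43, Gmps by 1.25 and Dera by −0.30, and each was still called. For Dera no other probe set lay above the background level, so its mean included dim readings. Of the sugar phosphate enzymes, Dera and Pgm2 were among the 3 that fell.

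Of 12 measured users of NADPH, 2 rose and 1 fell, with a median of −0.01. The share called was 25.0%, against 25.0% of all genes and 39.1% of genes above the background level. The rises were those of Fasn, fatty acid synthase (0.41, limma adjusted p = 0.0331), and Sqle, squalene epoxidase (0.39, limma adjusted p = 0.00823), and the fall that of the aldo-keto reductase Akr1b8 (−0.47, limma adjusted p = 0.00132). The call of Fasn ended without any 1 of the arrays other than shSep15 1 (limma adjusted p from 0.0639 to 0.114) and without the intensity trend (0.0575). The count of rises was 1 without any 1 of these arrays, and without control 3 the count of falls was 2. The subunits of the NAD-dependent isocitrate dehydrogenase, Idh3a, Idh3b and Idh3g, which make no NADPH, gave 0 calls by limma among 3 genes (2 at an unadjusted p under 0.05), with differences of 0.15, −0.20 and 0.02. When dim probe sets were left out of the fit, Idh3a was called higher and Idh3b lower.

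Among 10 regulators of these genes, 2 rose and 5 fell, with a median of −0.26. The share called was 70.0%, against 25.0% of all genes and 39.1% of genes above the background level. This list was chosen with earlier results known, and its share was not tested. Srebf1, which drives genes of lipid synthesis, read 9.43, 9.68 and 9.53 on the control arrays and 10.42, 10.84 and 11.07 on the shSep15 arrays, a rise of 1.23 (SE 0.15, limma adjusted p = 0.000506). Bach1, a repressor at antioxidant response elements, fell by 1.03 (SE 0.13, limma adjusted p = 0.000624), its possible partner Mafg by 0.61 (limma adjusted p = 0.00150), and the deacetylase Sirt2 by 1.10 (limma adjusted p = 6.13e-05). With the mean of its probe sets Bach1 differed by −0.62 (limma adjusted p = 0.0167), a mean that included dim readings, as no other Bach1 probe set lay above the background level. The count of rises among regulators was 1 without control 2, control 3 or shSep15 2. Nfe2l2 itself, which encodes NRF2, differed by −0.17 on its brightest probe set and was not called there (limma adjusted p = 0.109, named after its value was seen). Its other probe set above the background level was called, so the brightest one does not settle the reading of Nfe2l2.

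Of 10 measured NRF2 targets outside the members, 2 rose and 2 fell, a share near that of all genes above the background level (39.1%), with a median of −0.08. Gclm, a subunit of the enzyme that starts glutathione synthesis, rose by 1.75 and Abcc1, an exporter of glutathione conjugates, by 0.31, while the haem oxygenase Hmox1 differed by −1.14 and the cystine carrier Slc7a11 by −0.83 (limma adjusted p = 4.09e-06, 0.0427, 0.000112 and 0.0126). The shSep15 mean of Slc7a11, 5.97, was under the background level, so the size of its fall is not exact. The call of Abcc1 ended without any 1 of the arrays other than control 2 (limma adjusted p from 0.0569 to 0.143) and with the mean of its probe sets (0.199), and that of Slc7a11 without control 2 (0.0610) or shSep15 2 (0.0600). The count of rises was 1 without any 1 of the arrays other than control 2, and the count of falls 1 without control 2 or shSep15 2 and 3 without control 3.

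**Figure D4:**
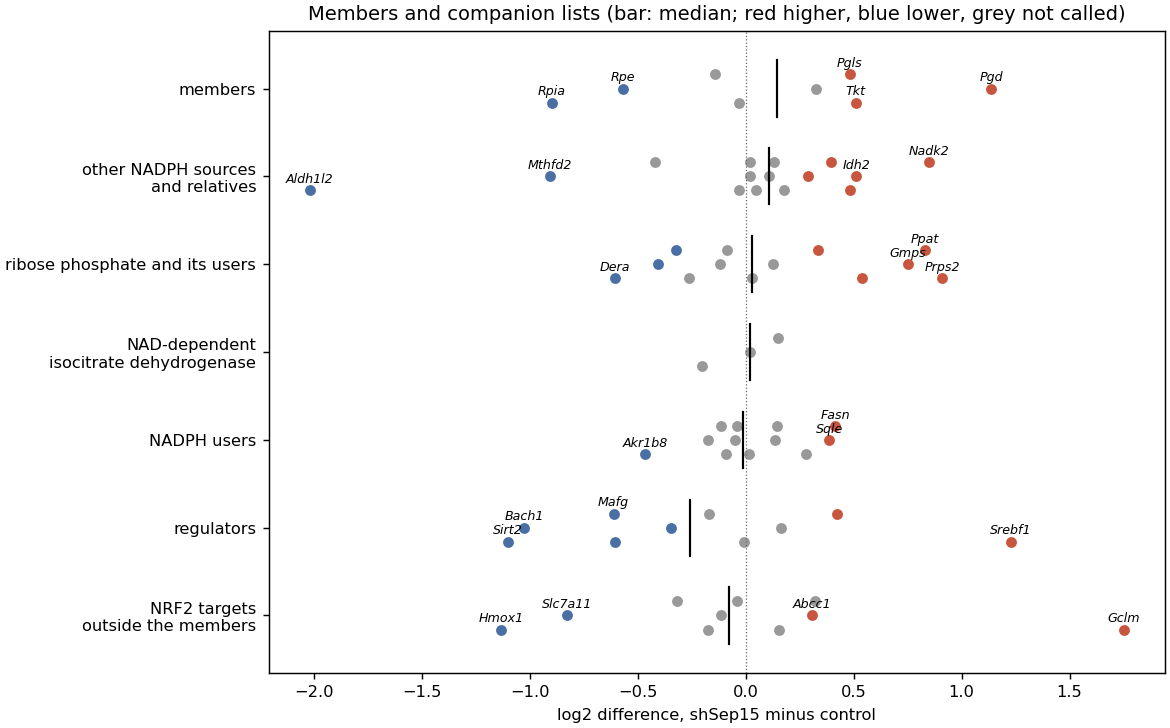
Log2 difference, shSep15 minus control, of the 8 members and of the genes of 6 companion lists, 1 point per gene on its brightest probe set; red was called higher, blue lower, grey not called, and the bar is the list's median. Every list holds points on both sides of 0, and the medians lie between −0.26 and 0.15.

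For the 3 members with the greatest absolute differences, genes with the nearest course over the 6 arrays were sought among 10869 others above background. Nearness was the root mean square distance between profiles centred on their own means. Such a profile keeps the group difference, so a near gene must have a similar difference, and its nearness is not separate evidence. Closest to Pgd were Decr1, a mitochondrial reductase of fatty acid oxidation (distance 0.03 on the log2 scale, difference 1.08), Pgm1, a phosphoglucomutase (0.04, difference 1.19), and the chromatin remodelling subunit Smarcc1 (0.05, difference 1.09). Decr1 and Pgm1 also lie on chromosome 4, and with the mean of its probe sets Pgm1 differed by 0.63. Closest to Rpia were Snx10, a sorting nexin, and the transcription factor Foxp1, both on chromosome 6 like Rpia, and the collagen receptor Ddr2, at distances of 0.05 each; with the mean of its probe sets Snx10 differed by −0.49 instead of −0.83. Closest to Rpe were 0610030E20Rik, 4930519F16Rik and Ofd1, at 0.02, 0.04 and 0.04. The calls of these 3 ended without control 1, shSep15 2 or shSep15 3 (limma adjusted p from 0.0504 to 0.0848).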

How the data were processed

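RNA of 3 control and 3 shSep15 samples of CT26 cells was isolated with TRIzol and hybridised as biotinylated cRNA, following the protocols in the labels. The authors deposited log2 values, which per the submitters' processing notes were computed with RMA (background correction, normalization between arrays and summary over a set's probes). The RMA version, any filter and a genome build are not given here by those notes. Normalization between arrays would hide a change of total RNA, and RMA compresses differences of dim probe sets.

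After 64 array controls were set aside, 45037 probe sets were tested. In the platform annotation 34945 had 1 gene symbol, 932 several and 9160 none, and only the first kind was named. Symbols were updated through the RefSeq table of GRCm38.p6, in which 34741 were found. Each gene was read on the probe set with the highest mean over the 6 arrays. The background level, 6.02, is the 95th percentile of the means of 78 receptor probe sets.

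Differences between groups were estimated with limma 3.58.1 (lmFit, eBayes with trend) in R 4.3.3, with group as the only term, and adjusted by the Benjamini-Hochberg method over all probe sets at 0.05, two-sided. Precision is limited by 3 arrays per group. Alternatives were arrays shifted to the same median, no trend, no dim probe sets, the replicate number as a block, each array left out, and the mean of a gene's probe sets.

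Members and lists were chosen with earlier results of these data known. The named genes are the members, Selenof, cell type markers, up to 4 called genes of each list with the greatest absolute differences, and the 3 genes nearest in profile to each of 3 members. Others are marked where they stand.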

Additional observations from a re-analysis of the deposited data

How the results depend on the processing

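All 5 called members, 3 higher and 2 lower, kept direction and call in each of the 11 alternatives. With each array left out in turn, Pgd ranged from 1.08 to 1.19, Pgls from 0.36 to 0.57, Tkt from 0.45 to 0.59, Rpia from −0.97 to −0.85 and Rpe from −0.66 to −0.45. With the mean of a gene's probe sets, Tkt was 0.31 and Rpe −0.34 (adjusted p = 0.0474 and 0.0323), both moved by over 1.5 times. Some differences near 0 changed sign with 1 array left out. Taldo1, which was not called, ranged from −0.069 to 0.040 (positive without control 2). Among probe sets of called genes, the dim one of Rpe ranged from −0.045 to 0.014 (positive without control 2). The dim one of Tkt ranged from −0.18 to 0.14 (positive without control 3 or shSep15 1). The second Rpe probe set was no longer called when arrays were shifted to the same median (adjusted p = 0.0536) or without the trend (0.0620). In each case of a lost call the cause was not tested.

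Over probe sets above background, deviations of same-numbered arrays from their group means correlated by 0.40, −0.20 and −0.06. Those of arrays with unlike numbers correlated by −0.39 (control 3 with shSep15 1) to 0.44 (control 3 with shSep15 2). Deviations within a group of 3 cancel out, so these values cannot decide whether the numbers pair the arrays. With the replicate block 3 members were higher and 2 lower, and 2246 genes were higher and 2345 lower in all, against 2220 and 2323. Among NRF2 targets the number higher was 1 with the block, when arrays were shifted to the same median, without the trend and with the mean of probe sets. Among NADPH users it was 1 without the trend, and the number lower was 2 without dim probe sets and with the mean of probe sets. Among the NAD-dependent subunits, 1 was higher and 1 lower without dim probe sets, and 1 higher with the mean of probe sets. With each array left out, the number higher ranged from 2 to 5 for other NADPH sources and relatives. It was 1 to 2 for NADPH users, for regulators and for NRF2 targets. The number lower ranged from 1 to 4 for ribose phosphate users, 1 to 2 for NADPH users and 1 to 3 for NRF2 targets.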
